A study of Rattus norvegicus with 4 samples.

Results

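The genes described here are 10 regulators and targets of the hypoxia pathway: Hif1a, Epas1, Vhl, Egln1, Egln3, Vegfa, Bnip3, Ndrg1, Ddit4 and Car9. They were taken from a fixed list of symbols, which was chosen with earlier results of these data known. Their probes were found by matching the accession of each array probe to the RefSeq rat gene table. Of the 10 genes, 9 had at least 1 named probe, 14 probes in all, out of 16581 named genes on the array. Egln1, the main oxygen-sensing prolyl hydroxylase, had no named probe, so its level was not measured here and only its promoter was examined.

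All samples came from NR8383, a cell line of alveolar macrophages obtained by lavage of a rat lung, after 20 passages. The 4 samples form 1 group, a water (H2O) control of 4 h whose tag ALI is not explained in the labels. Cells had been seeded for 48 h and were grown in air with 5% CO2, so no oxygen-poor condition was among the samples, and no comparison between conditions was made. The series text calls the 4 samples biological replicates. Nothing states that they came from separate cultures, so p-values measure the spread between these samples only.

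Cells sense oxygen through the transcription factors HIF-1 and HIF-2, whose alpha subunits are encoded by Hif1a and Epas1. In oxygenated cells, the prolyl hydroxylases Egln1, Egln2 and Egln3 modify the alpha subunits, which are then bound by the ubiquitin ligase subunit Vhl and degraded. When oxygen is scarce, the alpha subunits persist, pair with Arnt, and bind hypoxia response elements near target genes for glycolysis, mitophagy, pH control and vessel growth. Control of the alpha subunits is thus largely at the protein level, which arrays of RNA do not measure. In macrophages, Hif1a is also known to be raised by inflammatory signals.

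Signal was read on 4 one-colour arrays, 1 per sample. Values are given as the processed intensity of a probe and as its log2 value, which is the log2 intensity minus the log2 of the 75th percentile of the gene spots on that array. A log2 value of 0 is therefore the 75th percentile. On replicates 1 to 4 it stood at intensities of 878, 932, 1237 and 831. Across the arrays 49.2% to 50.3% of gene spots were well above background by the scanner software's flag, and no spot was saturated. Pearson's r between pairs of arrays was 0.990 to 0.994 over 17324 detected probes, which do not count as independent replicates. Negative control spots had a 95th percentile of intensity between 5.54 and 6.03, and the dimmest gene spot called well above background lay between 18.1 and 21.5. Probes differ in affinity, so each value follows 1 probe across the arrays and does not rank genes. The arrays named 11 markers of alveolar macrophages, and 9 of them were detected, among them Cd68, Csf1r, Spi1, Pparg and Siglec1, while Marco and Cd163 stayed at background. For other cell types of lung and blood, 3 of 16 markers were detected (Foxj1, Pecam1 and Cdh5), and 13 were not above background on any array.

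Detected here means that some probe of the gene passed the well-above-background flag on 4 of 4 arrays, not detected means that none passed on any, and the rest are partly detected. Hif1a, Vhl, Bnip3, Ndrg1 and Ddit4 were detected, Car9 was partly detected, and Epas1, Egln3 and Vegfa were not detected. These 5 of 9 genes stand beside 51.0% of all named genes detected, so the share is near the background and is not a result about the pathway. Likewise 6.43% of all named genes were partly detected and 42.6% were not. With the softer flag for positive and significant signal 6 of 9 were detected, beside 60.4% of all named genes, and with the 95th percentile of the negative controls as the limit 6 of 9, beside 59.5%; Car9 was the gene added by either. In RNA from whole cultures, fewer cells with a transcript and less transcript per cell cannot be told apart.

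**Figure D1:**
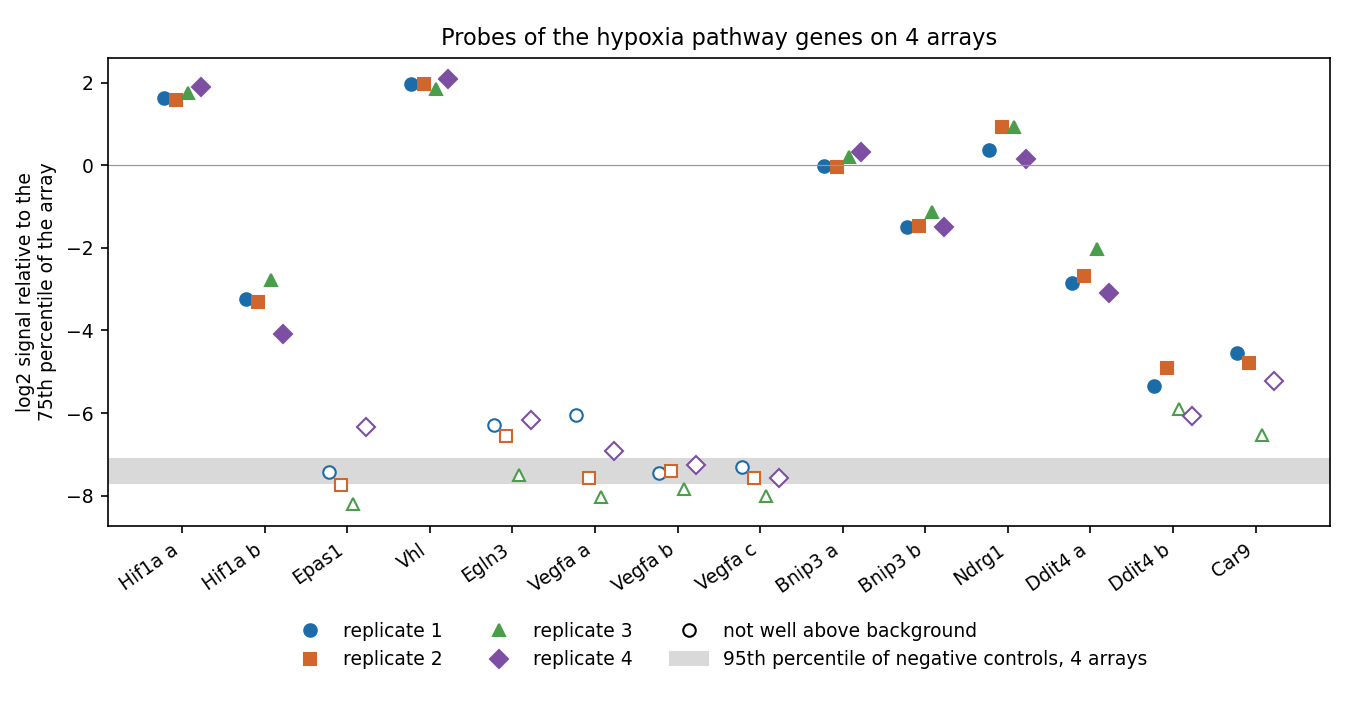
Log2 signal minus the array's 75th percentile (vertical axis) for the 14 probes of 9 hypoxia pathway genes (horizontal axis; letters a, b and c order the probes of 1 gene from bright to dim). Each symbol is 1 array, open where the probe was not well above background; the grey band spans the 95th percentile of the negative controls on the 4 arrays, and most Vegfa and Epas1 symbols lie in or just below or above it, while Hif1a probe a, Vhl, Bnip3 and Ndrg1 lie far above it.

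Of the 4 regulators with a probe (Hif1a, Epas1, Vhl and Egln3), Hif1a and Vhl were detected. Hif1a, the oxygen-regulated subunit of HIF-1, was read by 2 probes. The brighter (A_43_P12423) had intensities of 2690, 2793, 4161 and 3064 on replicates 1 to 4, which are log2 values of 1.61, 1.58, 1.75 and 1.88. All 4 lay close together after scaling, with a mean of 1.71 ± 0.14 (SD, n = 4) and a span of 1.23-fold between the highest and lowest array; without replicate 4 the SD was 0.0889. The dimmer probe (A_64_P081874) had intensities of 93.2, 93.3, 180 and 49.0, or log2 values of -3.24, -3.32, -2.78 and -4.08. It was well above background on 4 of 4 arrays but spanned 2.47-fold, and replicate 4, the highest array for the brighter probe, was the lowest here. The Hif1a probes therefore differed in which array was high, and only the brighter one entered the test of variation.

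Vhl, the substrate-recognition subunit of the ligase that marks HIF alpha for degradation, had 1 probe, with intensities of 3437, 3622, 4439 and 3536. Its log2 values of 1.97, 1.96, 1.84 and 2.09 gave a mean of 1.96 ± 0.10 (SD, n = 4). Of the 5 detected genes it had the smallest spread, 1.19-fold between the highest and lowest array.

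Epas1, which encodes the alpha subunit of HIF-2, was not well above background on any array. Its single probe gave intensities of 5.08, 4.34, 4.19 and 10.2. Replicate 4 stood above 99.4% of the negative control spots, and replicates 2 and 3 above 17.2% and 19.2%. With the softer flag for positive and significant signal, Epas1 was positive on 2 of 4 arrays. A single probe can miss a transcript that is present, so this is a statement about that probe.

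Egln3, a HIF hydroxylase that is itself a hypoxia target, had 1 probe in 2 spots per array. Its mean intensities were 11.2, 9.95, 6.80 and 11.7, none of them well above background. They exceeded 97.4% to 99.4% of the negative control spots, and the signal was positive and significant on 3 of 4 arrays. The paired spots were as far apart as 5.17 and 8.94 on replicate 3, and lay at 9.35 and 10.6 on replicate 2. Egln3 thus lay above most negative controls but under the detection limit used here.

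Among the secreted and surface targets, neither Vegfa nor Car9 was detected on all arrays. Vegfa, the vessel growth factor that is a classical HIF target, was read by 3 probes, and none was well above background on any array. The brightest (A_64_P099891) gave 13.4, 4.88, 4.70 and 6.87. Probe A_44_P1164111 gave 5.01, 5.54, 5.37 and 5.42, and probe A_64_P099886 gave 5.54, 4.89, 4.85 and 4.35. These dimmer probes did not count as above the 95th percentile of the negative controls on any array, and the brightest did on 2 of 4 arrays.

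Car9, the cell-surface carbonic anhydrase IX and a widely used hypoxia marker, was well above background on replicates 1 and 2 only. Its single spot gave intensities of 37.8, 33.6, 13.4 and 22.1 on replicates 1 to 4. Replicate 3 was lowest. After scaling, the log2 values were -4.54, -4.80, -6.52 and -5.23, a span of 3.96-fold. On every array the intensity exceeded the 95th percentile of the negative controls. A signal this dim was not tested for variation between arrays.

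Bnip3, a mitochondrial outer membrane protein that drives mitophagy in hypoxia, was read by both of its probes on every array. The brighter (A_64_P018726) is printed in 10 spots per array, which gives a direct measure of error within an array. Its mean intensities were 869, 908, 1428 and 1033, or log2 values of -0.02, -0.04, 0.21 and 0.31 on replicates 1 to 4. The mean was 0.12 ± 0.17 (SD, n = 4). Replicates 3 and 4 were higher than replicates 1 and 2. 1 of the 10 spots carried an outlier flag on 4 of 4 arrays and was left out. The other 9 ranged from -0.12 to 0.10 on replicate 1, from -0.15 to 0.20 on replicate 2, from 0.09 to 0.49 on replicate 3 and from 0.15 to 0.64 on replicate 4.

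The same Bnip3 spot was the brightest of the 9 on all 4 arrays, by 0.12 to 0.32 above the mean of its array. The pooled SD between spots of an array was 0.110, and it was 0.0443 once the mean of each spot position was also removed. Much of the spread between these spots was therefore shared by the 4 arrays. The SD between the array means was 0.172. Over 1044 detected probes with 10 spots, the median SD was 0.0998 within an array and 0.127 between arrays, so Bnip3 lay somewhat above both medians. The dimmer probe (A_44_P1370838, 2 spots) gave log2 values of -1.49, -1.47, -1.13 and -1.49. Here replicate 3 stood alone above the other arrays, while replicate 4, high with the brighter probe, was not.

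**Figure D2:**
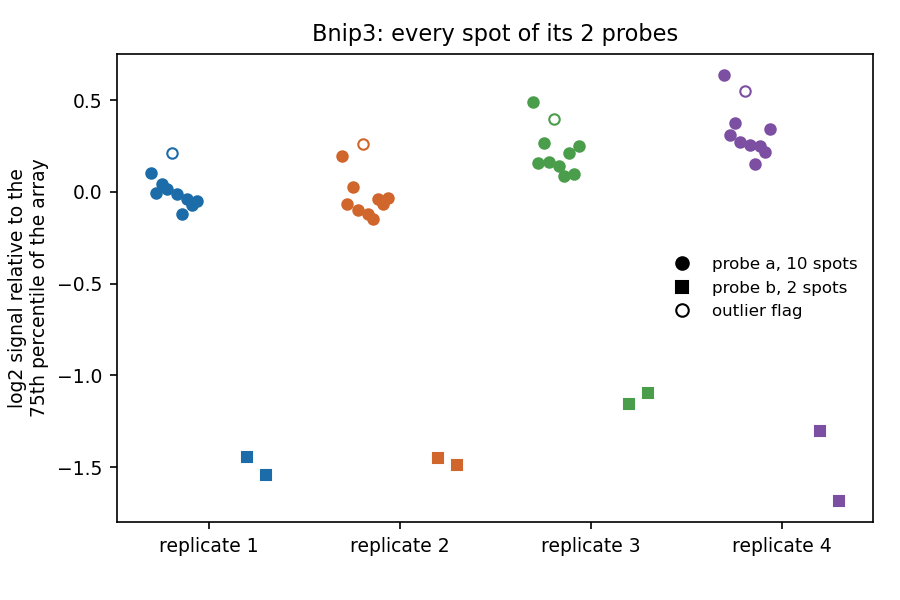
Log2 signal minus the array's 75th percentile (vertical axis) of every spot of the Bnip3 probes on the 4 arrays (horizontal axis). Circles are the probe with 10 spots and squares the probe with 2, open where an outlier flag was set; the 10-spot probe was higher on replicates 3 and 4, and the 2-spot probe on replicate 3.

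Ndrg1, a hypoxia- and stress-induced cytoplasmic protein, had intensities of 1127, 1756, 2339 and 929 on replicates 1 to 4. The log2 values were 0.36, 0.91, 0.92 and 0.16, with a mean of 0.59 ± 0.39 (SD, n = 4). Replicates 2 and 3 were high and replicates 1 and 4 low, a span of 1.69-fold. Both spots of the probe showed the same order of arrays, with 1054, 1603, 2141 and 819 in the dimmer and 1205, 1923, 2555 and 1054 in the brighter spot. The SD between arrays (0.387) was larger than that between the paired spots (0.195). The SD was 2.97 times the value fitted for genes of the same signal, and 94.7% of the tested genes had a smaller one.

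Ddit4, a stress-induced inhibitor of mTORC1 that is also known as a target of HIF-1 and of other stress pathways, was read by 2 probes. The brighter (A_42_P605985) gave 122, 146, 303 and 97.3, or log2 values of -2.85, -2.67, -2.03 and -3.10. Replicate 3 was highest, and the span was 2.09-fold. The mean was -2.66 ± 0.45 (SD, n = 4), and without replicate 3 the SD was 0.213. The dimmer probe (A_44_P556895) gave 21.6, 31.3, 20.6 and 12.4, and was well above background on replicates 1 and 2 only. On that probe replicate 2 was highest, so the probes did not share the high array, while replicate 4 was lowest on both.

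Whether these genes varied between the arrays more than other genes was tested in a limma fit over 8456 detected genes, with each gene's variance set against that of genes of like signal in an F test. None of the 5 detected genes passed a Benjamini-Hochberg adjusted p of 0.05, beside 20 of all tested genes (0.237%). The smallest adjusted p values of this F test were 0.410 for Ndrg1 and 0.658 for Ddit4, and those of Hif1a, Vhl and Bnip3 were 0.995. Before adjustment 2 of the 5, Ndrg1 and Ddit4, were under 0.05, beside 6.30% of all tested genes. A fit without trend and robust weights also called none of the 5. With 4 arrays, a p that misses the threshold does not show that these genes varied no more than others. Ddit4 was the 1 gene of the 5 to span more than 2-fold, beside 3.26% of all tested genes. The median SD of the 5 genes was 0.172, and that of all tested genes was 0.144. Without replicate 3 or without replicate 4, none of the 5 spanned more than 2-fold, beside 129 of 8474 and 162 of 8532 of all genes tested.

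**Figure D3:**
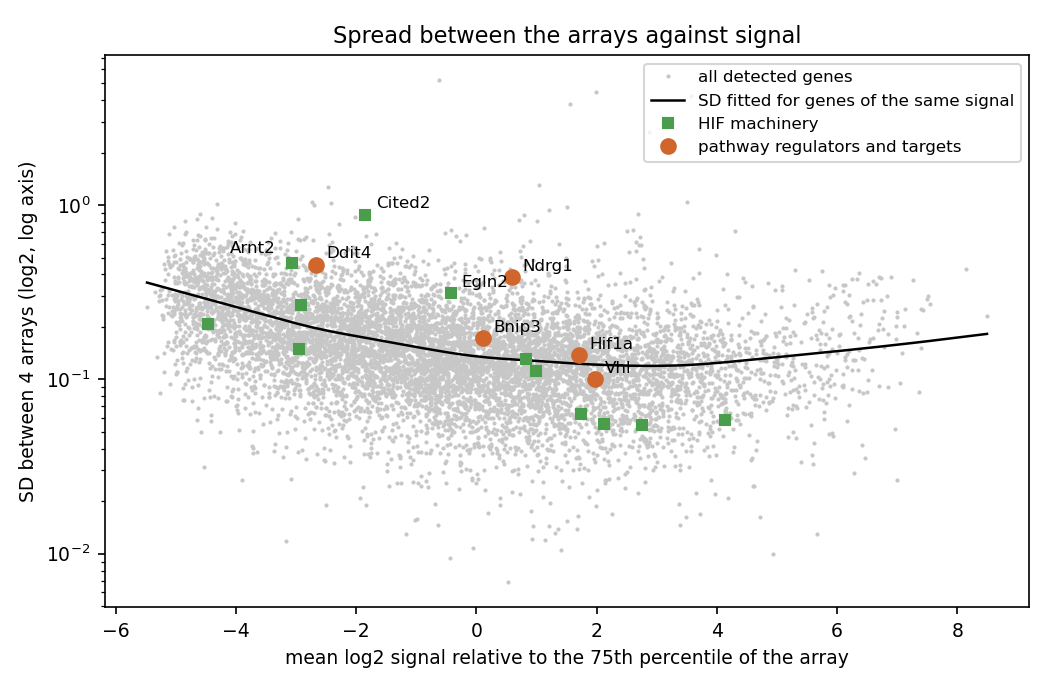
SD between the 4 arrays (vertical axis, log scale) against the mean log2 signal minus the array's 75th percentile (horizontal axis) for 8456 detected genes. Orange circles are the 5 detected hypoxia pathway genes, green squares the 12 detected genes of the HIF machinery, and the line is the SD fitted for genes of the same signal; Cited2, Ndrg1 and Ddit4 lie above the line, and Vhl lies below it.

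Promoters of the 10 hypoxia pathway genes, regulators as well as targets, were searched for the core letters of the hypoxia response element. These are ACGTG or GCGTG, read on both strands, with overlapping matches counted separately. RefSeq promoters of the build GRCr8, from 250 bases before to 50 after the annotated start, were used; 9 of the 10 genes matched, Ndrg1 not. At least 1 match lay in 5 of the 10 promoters of these genes (Vegfa has 2), against 41.6% of 33469 promoters of that length. Those 5 belong to the regulators Hif1a and Egln1 and to the targets Bnip3, Ddit4 and Car9. For ACGTG alone the counts were 5 of 10 against 19.3%. The core holds CpG, and the members' promoters range from 44.7% to 84.7% in GC content. Among the 25356 promoters in that range, 48.9% hold a match to either core and 21.8% hold ACGTG. That range is wide, and the median GC content over all promoters is 51.7%. Of the promoters with a match, Hif1a has 73.7% GC, Egln1 84.7%, Bnip3 71.3%, Ddit4 68.3% and Car9 57.7%. The shares in that range are therefore not corrected for the GC content of the promoters with a match, and an excess of matches was not tested. A match is a run of letters and not a shown binding site, and its absence in this window says nothing about the factor. Bnip3, Ddit4 and Car9 are shown because they are targets with a match, and Egln3 because it is a target with none; capitals mark the matches. They lie at chr1:203154913-203155212 (minus strand), chr20:28436988-28437287 (minus strand), chr5:62558774-62559073 (plus strand) and chr6:77410966-77411265 (minus strand), and each reads 5′ to 3′ along its gene.
Bnip3: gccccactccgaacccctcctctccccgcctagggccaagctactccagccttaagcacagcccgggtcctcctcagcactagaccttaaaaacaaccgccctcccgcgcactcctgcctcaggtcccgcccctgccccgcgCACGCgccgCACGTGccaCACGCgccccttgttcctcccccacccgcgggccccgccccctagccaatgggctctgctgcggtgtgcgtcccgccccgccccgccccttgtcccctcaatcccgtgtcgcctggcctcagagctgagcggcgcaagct
Ddit4: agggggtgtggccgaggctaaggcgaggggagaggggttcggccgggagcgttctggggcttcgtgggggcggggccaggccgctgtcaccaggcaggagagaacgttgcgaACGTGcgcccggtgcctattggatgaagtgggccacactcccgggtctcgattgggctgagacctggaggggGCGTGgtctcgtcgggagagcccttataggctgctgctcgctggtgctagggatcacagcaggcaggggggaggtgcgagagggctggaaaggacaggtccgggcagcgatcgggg
Car9: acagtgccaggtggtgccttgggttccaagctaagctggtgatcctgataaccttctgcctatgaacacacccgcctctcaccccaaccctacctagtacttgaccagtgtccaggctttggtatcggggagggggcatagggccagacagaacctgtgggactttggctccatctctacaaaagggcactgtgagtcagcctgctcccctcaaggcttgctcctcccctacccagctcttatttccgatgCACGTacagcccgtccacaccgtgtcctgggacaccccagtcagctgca
Egln3: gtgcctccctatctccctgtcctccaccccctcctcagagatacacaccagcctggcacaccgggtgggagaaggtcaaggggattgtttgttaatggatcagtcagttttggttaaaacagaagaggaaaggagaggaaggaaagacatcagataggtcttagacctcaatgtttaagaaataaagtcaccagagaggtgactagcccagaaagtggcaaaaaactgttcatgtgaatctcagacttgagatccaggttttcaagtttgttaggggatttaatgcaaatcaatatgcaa

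Bnip3 held 4 matches, starting at -108, -99, -98 and -90 from the annotated start; those at -99 and -98 are the strands of a single CACGTG. Of all promoters, 8.15% hold 3 or more. Ddit4 held 2, at -138 and -66. Car9 held 1, which begins at base 2 after the start. The regulator Egln1, which had no named probe, held 2, at -56 and at base 3 after the start. The detected genes Bnip3, Ddit4 and Hif1a (3 matches), and the partly detected Car9, hold matches, while the detected Vhl and the undetected Epas1, Egln3 and Vegfa hold none. This is a description of 8 genes with both a promoter and a probe, and it was not tested. The share of promoters with a match was not computed for all detected and undetected genes, so no link between match and detection can be read from it.

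The other parts of the HIF machinery were mostly detected. Of 16 genes listed, 14 had a named probe, 12 were detected, 1 partly and 1 not. The detected share of 85.7% stands beside 51.0% of all named genes. This list and those below were chosen with earlier results of these data known, so their shares describe the lists only. The partner subunit Arnt gave log2 values of -3.25, -2.71, -2.71 and -3.04 by 1 of its 2 probes, and its paralog Arnt2 -2.98, -2.71, -3.74 and -2.83 by 1 of 2. Hif3a, the remaining alpha subunit, was not well above background on any array. Egln2, the remaining prolyl hydroxylase, was detected at -0.43 ± 0.31 (SD, n = 4), and Hif1an, the asparaginyl hydroxylase that blocks the HIF coactivator contact, at -4.46 ± 0.21. Of the ligase complex that works with Vhl, Elob (4.14 ± 0.06), Eloc (1.74 ± 0.06) and Rbx1 (2.12 ± 0.06) were detected by both of their probes, with small spreads; Cul2 had no named probe. Os9 (0.99 ± 0.11), Cops5 (2.75 ± 0.06), the coactivator Crebbp (0.83 ± 0.13) and the ubiquitin ligase Siah1 (-2.95 ± 0.15) were detected as well. Siah2, a ligase that targets the hydroxylases, was above background on 3 of 4 arrays, and the coactivator Ep300 had no named probe.

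Of the 12 detected machinery genes, Cited2 and Arnt2 (2.05-fold) spanned more than 2-fold, and 3 (Cited2, Arnt2 and Egln2) were under 0.05 before adjustment, beside 3.26% and 6.30% of all tested genes. None passed the limma test, in which the adjusted p of Arnt2 and of Egln2 was 0.687. Cited2, a HIF target that competes with HIF-1 for its coactivators, had the highest SD of the 12. Its single probe gave log2 values of -1.04, -1.15, -2.79 and -2.40 on replicates 1 to 4. Replicates 1 and 2 were high and replicates 3 and 4 low, a span of 3.36-fold, and 99.8% of tested genes had a smaller SD. In the limma fit the adjusted p was 0.0564, so Cited2 did not pass the threshold. Without replicate 1 or replicate 2 it did (adjusted p = 0.0262 and 0.00507, limma), and without replicate 3 the adjusted p was 0.884. The SD of Cited2 was still 0.755 without replicate 3, beside 0.881 on all 4 arrays. Over all genes, 51 of 8517 passed without replicate 1, 63 of 8529 without replicate 2 and 3 of 8474 without replicate 3. The adjusted p thus also moved with the fit over all genes. Ndrg1 and Ddit4 did not share the order of arrays of Cited2: Ndrg1 was high on replicates 2 and 3.

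Of 49 further hypoxia targets, 46 had a named probe, 36 were detected and 10 were not. Detection reached 78.3% of those with a probe, beside 51.0% of all named genes. This share too describes the chosen list, which holds many enzymes of glycolysis, and it is not a result about the pathway. The glucose transporter Slc2a1 (3.21 ± 0.11), the hexokinase Hk2 (-0.81 ± 0.02), Pgk1 (5.58 ± 0.26) and Ldha (6.55 ± 0.17) of glycolysis, and Pdk1 (-0.64 ± 0.09), which restrains entry into the TCA cycle, were detected (log2 mean ± SD, n = 4). So were the lactate exporter Slc16a3 (-3.80 ± 0.18), the collagen hydroxylase P4ha1 (0.41 ± 0.12), the histone demethylase Kdm3a (-1.83 ± 0.17), the peptide Adm (-2.72 ± 0.07) and Ankrd37 (-1.38 ± 0.12). Slc2a3 was not detected by either of its probes. Across the 36 detected targets the median SD was 0.145, and none spanned more than 2-fold, beside 3.26% of all tested genes. None passed the limma test, in which the smallest adjusted p was 0.778. Aldoa alone was under 0.05 before adjustment, beside 6.30% of all tested genes.

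**Figure D4:**
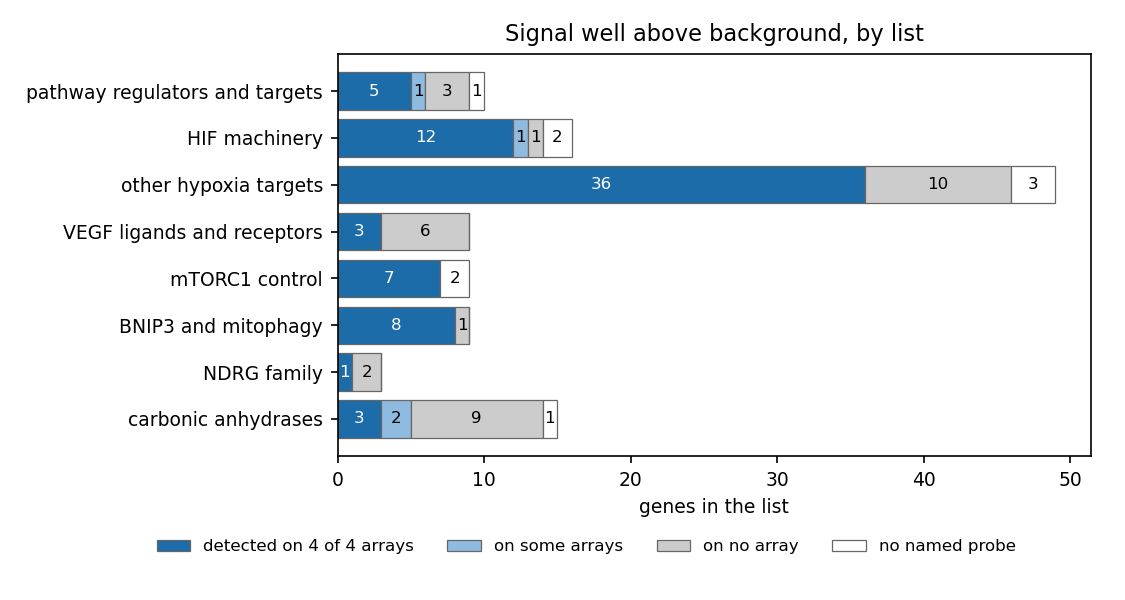
Number of genes (horizontal axis) in each list that were well above background on 4 of 4 arrays, on some arrays, on no array, or had no named probe. The HIF machinery (12 of 14 with a probe) and the other hypoxia targets (36 of 46) were mostly detected, and the VEGF ligands and receptors (3 of 9) and carbonic anhydrases (3 of 14) mostly not.

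Relatives and partners of Vegfa and Car9 were mostly not detected on every array. Of 9 VEGF ligands and receptors besides Vegfa, 3 were detected (33.3%, beside 51.0% of all named genes): the ligand Vegfb (0.92 ± 0.28) and the coreceptors Nrp1 (1.19 ± 0.40) and Nrp2 (1.83 ± 0.21). The ligands Vegfc, Vegfd and Pgf and the receptors Flt1, Kdr and Flt4 were not detected. Nrp1 spanned 1.89-fold and had a limma adjusted p of 0.369. Of 14 carbonic anhydrases besides Car9, 3 were detected (21.4%), the mitochondrial Car5b (-0.20 ± 0.07), the cytosolic Car13 (-3.31 ± 0.14) and the membrane-bound Car14 (-4.30 ± 0.14). Car2 was above background on 2 arrays, Car6 on 1, and Car12, the other surface enzyme known as a hypoxia target, on none.

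For the genes listed with Bnip3, Ddit4 and Ndrg1, the detected counts were 8 of 9, 7 of 7 and 1 of 3, beside 51.0% of all named genes. The 8 detected genes listed with Bnip3 included its paralog Bnip3l (2.68 ± 0.14), Bnip1 (-2.96 ± 0.17), Bnip2 (-0.12 ± 0.20) and the kinase Pink1 (-0.72 ± 0.11). The rest were the autophagosome proteins Map1lc3a (3.62 ± 0.15), Map1lc3b (4.56 ± 0.17), Gabarapl1 (3.48 ± 0.07) and Gabarapl2 (2.44 ± 0.06). The receptor Fundc1 was not detected. Of the mTORC1 genes downstream or alongside of Ddit4, all 7 with a named probe were detected, namely Tsc1 (-0.12 ± 0.08), Tsc2 (1.18 ± 0.14), Rheb (1.77 ± 0.11), Mtor (-4.03 ± 0.39), Rptor (1.95 ± 0.10), Sesn2 (-1.56 ± 0.16) and Txnip (-0.70 ± 0.07); Ddit4l and Sesn1 had no named probe. In the NDRG family besides Ndrg1, Ndrg3 was detected by 3 of 3 probes (1.28 ± 0.15), and Ndrg2 and Ndrg4 were not. No gene of these 5 lists passed the limma test of variation, in which the smallest adjusted p was 0.369. Before adjustment 2 genes were under 0.05, Nrp1 and Vegfb, both among the 3 tested VEGF ligands and receptors, beside 6.30% of all tested genes.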

How the data were processed

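RNA from 4 samples of 1 group was labelled with Cy3 and read on 1 array each, per the labels. The deposited files are the output of Agilent Feature Extraction 11.0.1.1, named in the submitters' processing notes. The deposited values used are linear intensities of spots (the software's processed signal, whose correction steps are not given in the sources used here), and other columns hold flags of 0 or 1. Per the file headers, all 4 arrays share 1 scan date and slide, so no batch could be compared. The array design names the build rn4, so no probe coordinates are given. The promoter coordinates above are those of GRCr8. The array number, not read depth, limits the precision.

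Spots of a probe were averaged on the log2 scale without spots that carried an outlier flag (1.11% to 1.45%), and the 75th percentile of the gene spots was subtracted. A probe with several spots counted as above background where more than 50% of them did. Accessions were matched without versions to RefSeq (GRCr8): 21109 of 45598 probes matched 1 gene. For a gene with several probes, the brightest entered the limma 3.58.1 fit (R 4.3.3), an intercept-only model with trend and robust eBayes. The residual variance was set against the fitted variance in an upper-tail F test, called the limma test here. That F test was computed from the fit and is not a limma output. The highest prior degrees of freedom of the fit were used for every gene, in place of the lower values that the robust fit gives outlying genes. The test was checked on simulated data, where it missed many of the genes that were given a raised SD. Python 3.11.15 with pandas 2.3.3 did the rest.

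Alternatives were another background correction, other scalings, detection by other flags, other probe rules, no filter on dim probes, plain eBayes and leaving out each replicate. Normexp used the median spot signal, chosen after seeing the files, because the mean signal named in the plan is not among their columns. All 10 genes, and every gene of the short lists, are named; targets and carbonic anhydrases are named by a set list or by detection. With 4 replicates of 1 condition, no likeness to other genes was ranked. Not every listed gene is named or reported here. The members and lists were chosen with earlier results of these data known.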

Additional observations from a re-analysis of the deposited data

Results flagged for a closer look

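For the 14 member probes and the genes of the related pathway lists, the gap between the highest or lowest array and its nearest neighbour was divided by the range, and a share above Dixon's limit at the 95% level was taken as an array that stands apart. Chance gives about 1 such case in 20, and 7 were found among 114 examined, which is near that share. Among the members it was the dimmer Bnip3 probe, high on replicate 3 (-1.13, against -1.49 to -1.47 on the others; share 0.938). Among genes that were not well above background, Vldlr (0.923) was high on replicate 2, Kdr (0.844) and Car7 (0.918) on replicate 3, and Car8 (0.857) on replicate 4, while Vegfc (0.940) was low on replicate 3. The median of the negative controls was also lowest on replicate 3 after scaling (-8.08, against -7.66 to -7.62 on the others). Before scaling, Vegfc gave intensities of 4.64, 4.99, 4.76 and 4.48 on replicates 1 to 4, among which replicate 3 was not low. The detected Car14 was low on replicate 3 after scaling (-4.51, against -4.26 to -4.21 on the others), with a share of 0.832. All of the shares were computed from scaled values. The causes of these cases were not tested.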

How the results depend on the processing

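No paired analysis was possible because the series holds 1 group. Of the 9 named genes, 5 were detected, and 4 to 6 under the 9 alternatives: 4 when every probe of a gene had to be above background (Ddit4 was then partly detected) and 6 with the positive and significant flag or the negative controls (Car9 was then detected). None of the 5 passed the test of variation under any of the 12 alternatives; the count over all genes was 20, and 3 to 79 under them. The count of members spanning more than 2-fold was 5 of 9 with no filter on dim probes, beside 3909 of all 16558 genes tested. It was 2 of 5 with no scaling, beside 834 of 8456 genes, and 0 of 5 with normexp, beside 76 of 8456. Without single replicates it was 0 to 1 of 5, beside 129 to 231 of all genes tested. The median SD of the members was 0.241 with the mean over detected probes, 0.455 with no filter, 0.324 with no scaling, and 0.136 to 0.197 without single replicates; that of all genes was 0.123 to 0.267 under the alternatives. Over all genes the count above 2-fold was 276, and 76 to 3909 under the alternatives. Cited2 passed the limma test with outlier spots kept (adjusted p = 0.0491), normexp (0.00604) and no filter (0.00107), as well as without replicate 1 or 2, within a range of 0.00107 to 0.907 over its 12 alternatives. The cause of these changes was not tested. Signals near background limit what can be said of Epas1, Egln3, Vegfa and Car9.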
